A study of Homo sapiens with 3 samples.

Results

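Replication-dependent core histone genes encode the H2A, H2B, H3 and H4 proteins that package newly copied DNA. They were read here as all probe sets whose single annotated symbol starts with H2AC, H2BC, H3C or H4C followed by digits. The rule found 44 probe sets for 39 of 19775 genes, out of 41091 probe sets with 1 gene symbol and 54675 on the array. Of the 44, 11 read H2A genes, 15 H2B, 8 H3 and 10 H4. Of the 39 genes, 2 are pseudogenes in the RefSeq annotation (H2AC5P and H4C10P). RefSeq places 36 of the genes on chromosome 6, 2 on chromosome 1 (H2BC21 and H2AC25) and 1 on chromosome 21 (H2BC12L).

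The study asked how a stable form of the methyltransferase Set8b alters gene expression in U2OS, a human osteosarcoma cell line. Cells were transduced with retroviruses carrying 1 of 3 constructs and harvested at day 5. The constructs were stable Set8b (labelled Set8_deltaPIP2, which resists the CRL4-Cdt2 ubiquitin ligase), wild-type Set8b (Wt-Set8b) and the empty pMSCV-vector. All 3 groups were transduced U2OS cells, so none shows cells without virus, and Set8b in both Set8b groups was expressed from the retrovirus on top of the cells' own gene. Each construct had 1 array, 3 in all. With so few arrays the differences below are descriptions without replicates, and no test was run.

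As background, most histone mRNAs of this family are made in S phase and end in a stem-loop in place of a poly(A) tail. The stem-loop is bound by SLBP, which carries the mRNA through processing and translation. Some members, among them H2BC12, H2BC5, H2BC21 and H2AC6, are known to give polyadenylated transcripts as well, mainly in cells that leave the cycle. Set8 (gene KMT5A) is the enzyme that monomethylates histone H4 at lysine 20. Arrays of this type are usually labelled from oligo(dT), which reads polyadenylated RNA. The labels name only the manufacturer's protocol, so how far each probe set read stem-loop or polyadenylated mRNA was not tested.

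Signals below are probe-set intensities after quantile normalization, and a log2 difference of 1 is 2-fold. A geometric mean signal of 50 over the 3 arrays separates brighter from dimmer probe sets. In the probe set names, _x_at marks probes that can also read other sequences and _s_at probes shared by several transcripts. By this measure 12 probe sets (10 genes) lay at or above 50, which were 2 for H2A, 7 for H2B, 0 for H3 and 3 for H4. Of these 12, 10 ended in _x_at or _s_at. The other 32 were dimmer, and 3 of those ended in _x_at or _s_at. The dimmest of the 12 was H2AC14 at 75.0, and the next below 50 was H2BC4 at 46.9. Where a gene had several probe sets above 50, their log2 differences of stable Set8b from vector varied with an SD of 0.40 (5399 genes), which says nothing of the spread between cultures.

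The arrays matched the label of the cells in part. VIM, COL1A1, SPARC, CDH2 and RUNX2 lay at or above 50, but 2 of the 7 mesenchymal markers, COL1A2 and TWIST1, did not. Of the 5 epithelial markers 3 lay above 50, of the 5 leukocyte markers 2, and of the 3 endothelial markers 2. KRT18 and KRT8 read at least 4797 and 3450 on every array. CD3D read 200, 75.9 and 107 with stable Set8b, wild-type Set8b and vector, and PECAM1 173, 122 and 74.9. By contrast KRT19 read at most 4.90, PTPRC at most 33.0 and CDH5 at most 8.60. CDH1, with a mean below 50, read 78.6 with stable Set8b. The summed leukocyte signal was 317, 259.9 and 207 on the stable Set8b, wild-type Set8b and vector arrays, and the endothelial sum was 231, 190.1 and 153. The epithelial sum was 10569, 9674 and 8678, and the mesenchymal sum was 36029, 28119 and 32134. Not every marker followed its sum. In the same array order EPCAM read 169, 425 and 431 and VWF 57.2, 68.3 and 77.7, both lowest with stable Set8b. CD79A read 117, 184 and 99.7, highest with wild-type Set8b. The part of these differences in the histone results was not tested. The transduced gene KMT5A was read by 4 probe sets whose differences of stable Set8b from vector ran from -0.76 to 0.90. All 4 were higher with wild-type Set8b than with vector (0.18 to 1.23). All 4 were lower with stable than with wild-type Set8b (-0.06 to -1.08). Which of them read the retroviral gene was not tested, so they do not check the labels. Ratios of 3' to 5' probe sets for GAPDH were 1.02, 1.12 and 1.03 on the stable Set8b, wild-type Set8b and vector arrays. For beta-actin they were 7.33, 7.56 and 7.995. As deposited, the 24 poly-A spike-in probe sets had median ratios of 0.467 (stable Set8b over vector), 1.06 (stable over wild-type Set8b) and 0.441 (wild-type Set8b over vector). For the 18 hybridisation spike-in probe sets they were 0.796, 0.784 and 1.01.

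The brighter H2B probe sets read higher with stable Set8b than with either other construct, and the H4 probe sets were split. All 7 H2B probe sets at or above 50 were at least 2-fold higher with stable Set8b than with vector. They were annotated to 6 genes and ran from 1.05 to 2.01 log2, with a median of 1.69. Of the 7, 5 end in _x_at and 1 in _s_at. Whether the 7 read each other's transcripts was not tested, and they are not taken as independent. With arrays centred on their medians in place of quantile normalization, H2BC6 lay at 0.95, so 6 of the 7 passed 2-fold. Over all classes 9 of the 12 brighter probe sets were at least 2-fold higher and 0 lower, against 4.92% higher and 4.95% lower among the 20708 probe sets with 1 symbol at that brightness. Of the 9, 1 was H2AC14, whose vector signal of 33.97 was dim and which reached a mean of 50 through its Set8b signals. With a mean signal of at least 100, which leaves H2AC14 out, 8 of 11 were higher. The median of the 12 was 1.45, against -0.02 for the 20708. H3 had no brighter probe set. With no signal filter, 12 of the 44 were higher and 8 lower with a median of 0.00, against 10.2% higher and 10.1% lower over all 41091. Of the 7 brighter probe sets ending in _x_at, 6 were higher, H2AC14 among them, and 0 lower. This compares with 5.19% and 3.85% of the 1716 probe sets with that ending at that brightness.

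**Figure D1:**
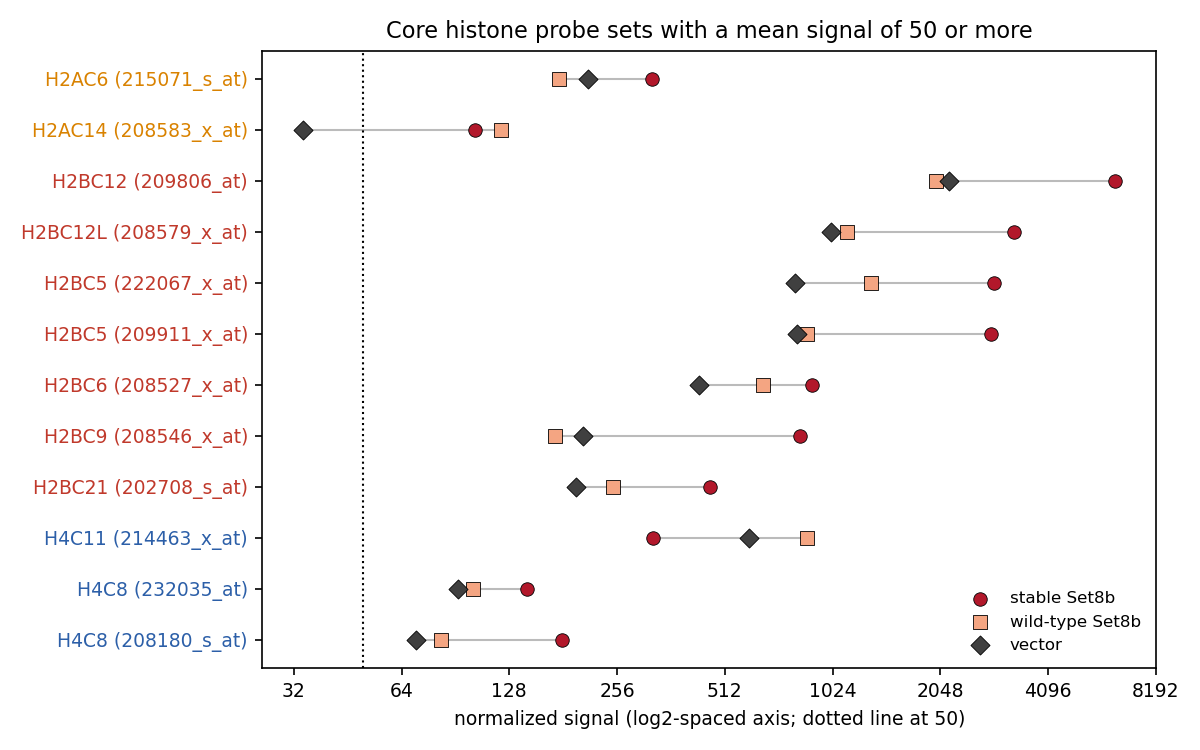
Normalized signal (log2-spaced axis) of the 12 core histone probe sets with a geometric mean signal of at least 50, with 1 point for each of the 3 arrays. The 7 H2B probe sets (red labels) have stable Set8b as the highest array, and H4C11 has it as the lowest.

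H2B wraps DNA as a dimer with H2A, and its genes gave the brightest single-gene readings of the family. H2BC12 by 209806_at, the only brighter H2B probe set with neither ending, read 6316 with stable Set8b, 1989.7 with wild-type Set8b and 2165 with vector. Stable Set8b was 2.92-fold higher than vector and 3.17-fold higher than wild-type Set8b. H2BC12L, a near-copy of H2BC12 on chromosome 21, read 3287, 1127 and 1017 by 208579_x_at, 3.23-fold higher than vector. Whether these 2 probe sets read each other's transcripts was not tested.

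H2BC5 was read by 2 probe sets that gave nearly the same fold over vector. By 222067_x_at it read 2889.7 with stable Set8b, 1314 with wild-type Set8b and 806 with vector, 3.59-fold higher for stable Set8b over vector. By 209911_x_at it read 2846, 868 and 817, or 3.48-fold. The wild-type Set8b array stood 0.71 log2 above vector by the first and 0.09 by the second (-0.08 with median-centred arrays), a gap wider than the SD between probe sets for that comparison, 0.36. H2BC9 by 208546_x_at had the widest difference of the brighter probe sets. It read 829 with stable Set8b, 171 with wild-type Set8b and 206 with vector, 4.03-fold higher than vector and 4.84-fold higher than wild-type Set8b.

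H2BC21 and H2BC6 differed less. H2BC21, which lies outside the large cluster on chromosome 6, read 467, 249 and 197 by 202708_s_at, log2 differences of stable Set8b of 1.25 from vector and 0.91 from wild-type Set8b. H2BC6 read 899.8, 656 and 434 by 208527_x_at, or 1.05 and 0.46. In both, wild-type Set8b lay between stable Set8b and vector.

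The 8 dimmer H2B probe sets had no such direction. Of these, 0 were at least 2-fold higher with stable Set8b than with vector and 1 was lower, against 15.7% and 15.2% of the 20383 probe sets with 1 symbol below 50. Among them H2BC15 read 57.1 with stable Set8b, 55.5 with wild-type Set8b and 30.8 with vector. H2BC14 read 54.5, 32.5 and 31.9. H2BC11 read 63.0, 6.37 and 64.3 by 214502_at, so only the wild-type Set8b array was low. The signals of these 3 lay near or below 50, where differences past 2-fold were common over all probe sets. The other 5, H2BC4, H2BC3, H2BC1, H2BC13 and H2BC17, read between 1.03 and 53.0.

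The promoters of H2BC12, H2BC9, H2BC5 and H2BC21 are shown because these brighter H2B genes were high on the same array. That of H4C11 is shown because it went the other way. Each is the RefSeq window of GRCh38.p14, from 250 bases before the transcription start to 50 after it, 5′ to 3′ on the strand of the gene. Where the table holds 2 windows for a gene (H2BC12, H2BC5, H3C4 and H3C6), the first was used. Capitals mark matches, on either strand, to TATAAA (the core of a TATA box), CCAAT (the CCAAT box) and TTTGCAT (7 letters of the octamer that binds Oct-1, a known element of H2B promoters). In H2BC12 one run of capitals near the 5′ end holds 2 overlapping TATAAA matches, one on each strand. The windows are chr6:27146809-27147108 (minus strand) for H2BC12, chr6:26251364-26251663 (plus) for H2BC9, chr6:26157871-26158170 (plus) for H2BC5, chr1:149886633-149886932 (minus) for H2BC21 and chr6:27823842-27824141 (plus) for H4C11.
H2BC12: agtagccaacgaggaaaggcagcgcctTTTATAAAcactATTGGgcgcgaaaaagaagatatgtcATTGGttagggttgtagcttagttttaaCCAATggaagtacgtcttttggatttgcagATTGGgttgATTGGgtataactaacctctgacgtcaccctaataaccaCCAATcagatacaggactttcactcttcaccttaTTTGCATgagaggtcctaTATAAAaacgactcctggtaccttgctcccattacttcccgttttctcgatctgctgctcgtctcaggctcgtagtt
H2BC9: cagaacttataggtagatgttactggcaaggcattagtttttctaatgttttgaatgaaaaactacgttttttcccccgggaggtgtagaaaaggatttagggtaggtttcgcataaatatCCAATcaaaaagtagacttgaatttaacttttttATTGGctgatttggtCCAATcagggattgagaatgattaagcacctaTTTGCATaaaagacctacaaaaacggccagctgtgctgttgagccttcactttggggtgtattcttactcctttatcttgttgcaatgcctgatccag
H2BC5: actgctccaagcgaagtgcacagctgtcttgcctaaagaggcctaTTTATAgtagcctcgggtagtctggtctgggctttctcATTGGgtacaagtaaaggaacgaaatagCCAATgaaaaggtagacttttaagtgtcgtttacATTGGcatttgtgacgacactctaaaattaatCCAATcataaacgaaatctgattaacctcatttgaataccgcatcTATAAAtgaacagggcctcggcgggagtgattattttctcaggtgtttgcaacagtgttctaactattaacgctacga
H2BC21: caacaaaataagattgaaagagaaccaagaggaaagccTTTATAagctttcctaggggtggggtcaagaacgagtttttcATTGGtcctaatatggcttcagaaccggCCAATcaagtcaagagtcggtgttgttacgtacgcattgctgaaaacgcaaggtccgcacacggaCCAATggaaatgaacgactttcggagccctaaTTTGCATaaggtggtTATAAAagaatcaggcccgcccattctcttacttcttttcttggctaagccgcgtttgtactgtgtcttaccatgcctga
H4C11: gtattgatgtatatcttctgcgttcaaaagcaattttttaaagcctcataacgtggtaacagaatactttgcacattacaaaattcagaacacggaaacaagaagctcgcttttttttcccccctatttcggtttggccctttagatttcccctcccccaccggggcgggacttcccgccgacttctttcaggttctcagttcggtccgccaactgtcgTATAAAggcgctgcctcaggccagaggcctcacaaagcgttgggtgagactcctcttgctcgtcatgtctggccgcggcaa

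The octamer core began at -45 in H2BC12, -48 in H2BC9 and -45 in H2BC21, counted from the start of transcription, and was not in the H2BC5 window. In H2BC6, also high on the stable Set8b array but with its window not printed, it began at -107. The only TATAAA match of H2BC6 was at -189 and its only CCAAT match at -137. In H2BC12 and H2BC21 a TATAAA match followed it, at -27 and -30. H4C11 had a TATAAA match at -31 and no match to the other motifs. Among the 18 H2B promoters 77.8% held TTTGCAT, as did 68.8% of the 16 H2A promoters, 9.09% of the 11 H3 and 0 of the 13 H4 promoters. The 1 H3 match lies in the H3C4 window, which is the same stretch as the H2AC7 window and is thus counted in both classes. Most of the H2A matches are also counted in H2B, because the windows overlap on opposite strands and matches on either strand count. This holds for H2AC1, H2AC6, H2AC7, H2AC8, H2AC11, H2AC14, H2AC17 and H2AC20. The H2A and H2B shares are thus not independent, and other motifs in shared bases are likewise counted in both. Over all 27305 genes with a window 4.51% held the octamer core. CCAAT was in all 18 H2B, 16 H2A and 11 H3 windows but in 3 of the 13 H4 windows (23.1%), against 35.7% of all genes. TATAAA was in 67.2% of the 58 windows of the family and in 12.0% of all.

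Within H2B, TTTGCAT was in 4 of the 5 brighter H2B genes with a window and in 6 of the 8 H2B genes with dim probe sets only. A match is a run of letters and not a measured binding site. Of the 39 member genes 34 had a window, and of the 10 brighter ones 9.

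H4 pairs with H3 and carries the lysine that Set8 methylates. Its 3 brighter probe sets disagreed. H4C11 by 214463_x_at read 323 with stable Set8b, 870.0 with wild-type Set8b and 599.7 with vector, log2 differences of stable Set8b of -0.89 from vector and -1.43 from wild-type Set8b. Stable Set8b was thus the lowest array and wild-type Set8b the highest. H4C8 had stable Set8b as the highest array by both of its probe sets. It read 179, 82.4 and 70.4 by 208180_s_at, 2.55-fold higher than vector, and 144, 102 and 91.8 by 232035_at, 1.57-fold higher. The second is the only brighter probe set outside H2B with neither ending.

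The 7 dimmer H4 probe sets included H4C5, flat at 45.5 with stable Set8b, 49.2 with wild-type Set8b and 45.2 with vector. H4C9 read 7.63, 39.9 and 68.7, so its signal was highest on the vector array and lay below the floor of 7.7 with stable Set8b. H4C4 read 33.9, 33.7 and 11.7. The log2 difference of H4C9 from vector, -3.16, shrank to -0.46 with signals under 50 set to 50. The other 4, H4C7, H4C1, H4C13 and the pseudogene H4C10P, read between 3.70 and 32.3.

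H2A was read by 2 brighter probe sets. H2AC6 by 215071_s_at read 319.8 with stable Set8b, 177 with wild-type Set8b and 212 with vector, 1.51-fold higher than vector and 1.81-fold higher than wild-type Set8b. H2AC14 by 208583_x_at read 102.5, 121 and 33.97, so both Set8b arrays were above vector. With the vector side set to 50, its log2 difference from vector was at least 1.04 with stable and 1.28 with wild-type Set8b. Its promoter window overlaps that of H2BC14 on the opposite strand by 256 bases, and H2BC14 (54.5, 32.5 and 31.9) was above 50 with stable Set8b only. H2AC6 shares 255 bases in the same way with H2BC4, which read 47.8, 40.6 and 53.0.

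Of the 9 dimmer H2A probe sets, 1 was at least 2-fold higher and 4 lower with stable Set8b than with vector, where 15.7% and 15.2% of all dim probe sets were. H2AC15 by 239041_at read 25.8, 53.7 and 71.6, and H2AC4 read 27.2, 46.6 and 52.5, both lowest with stable Set8b. H2AC25 by 231681_x_at read 45.4, 24.5 and 11.7, while its other probe set, 221582_at, read 4.43, 11.9 and 28.1, the opposite order. The remaining H2A probe sets, those of H2AC16, H2AC17, H2AC8, the pseudogene H2AC5P and a second one of H2AC15, read between 3.10 and 29.0, counting 221582_at. Dim probe sets of 1 gene could thus order the arrays in opposite ways.

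All 8 H3 probe sets were dim. H3C6 by 236278_at read 58.1 with stable Set8b, 46.4 with wild-type Set8b and 17.8 with vector, and its other probe set read 44.4, 42.03 and 28.1. H3C8 by 208496_x_at read 9.53, 41.9 and 66.7, the reverse order. H3C2 read 40.7, 29.3 and 50.03. The other H3 genes, H3C7, H3C1, H3C11 and H3C3, stayed under 50 on every array. No direction is given for H3.

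Over all classes, 3 of the 32 dimmer probe sets (9.38%) were at least 2-fold higher with stable Set8b than with vector and 8 (25.0%) lower. Among all 20383 probe sets with 1 symbol at that brightness 15.7% were higher and 15.2% lower. The median of the 32 was -0.22, against 0.00 for the 20383. Of the 20 dimmer probe sets given by range, 19 lay under 50 on every array.

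**Figure D2:**
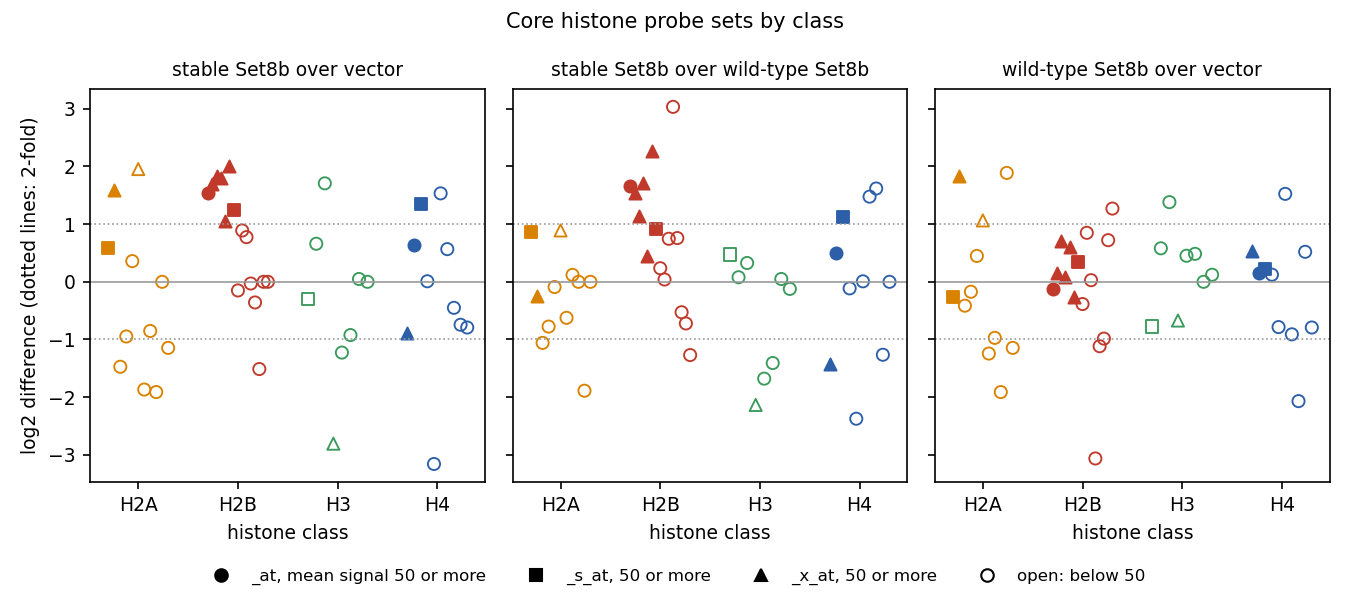
Log2 difference of each of the 44 core histone probe sets (vertical axis) by histone class, in a panel for each comparison; filled symbols have a geometric mean signal of at least 50, and shape gives the ending of the probe set name. Filled H2B symbols lie at 1.05 to 2.01 for stable Set8b over vector, 0.46 to 2.27 for stable over wild-type Set8b and -0.26 to 0.71 for wild-type Set8b over vector.

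Stable and wild-type Set8b differ by design in resistance to degradation. KMT5A also read lower on the stable Set8b array by all 4 of its probe sets (-0.06 to -1.08 log2). With 1 array each, resistance, the level of Set8b RNA and the culture cannot be told apart. This comparison and the one with vector share the stable Set8b array. Of the 12 brighter probe sets, 6 were at least 2-fold higher with stable Set8b and 1 lower, against 4.7% higher and 4.76% lower among the 20708. The median was 1.01, against -0.01. Of the 7 H2B probe sets 5 passed 2-fold, and H2BC21 at 0.91 and H2BC6 at 0.46 did not. The sixth was H4C8 by 208180_s_at at 1.12, and the lower one was H4C11 at -1.43. H2AC14 was at -0.24. Of the 7 ending in _x_at, 4 were higher and 1 lower, against 4.55% and 4.31%. With no signal filter 9 of the 44 were higher and 9 lower, against 10.4% and 10.3%, and of the 32 dimmer ones 3 were higher and 8 lower, against 16.3% and 16%.

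Wild-type Set8b over vector showed little in the brighter probe sets. Of the 12, 1 was at least 2-fold higher (H2AC14, against a dim vector signal) and 0 lower, with 1.32% and 1.15% of the 20708 past 2-fold. The median was 0.19, against -0.01. The 7 H2B probe sets ran from -0.26 (H2BC9) to 0.71 (H2BC5 by 222067_x_at), and H2BC6 was at 0.60. H4C11 was at 0.54. Of the 7 ending in _x_at, 1 was higher and 0 lower, against 2.68% and 1.17%. With no signal filter 6 of the 44 were higher and 6 lower, against 8.36% and 8.11%, and of the 32 dimmer ones 5 were higher and 6 lower, against 15.5% and 15.2%.

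**Figure D3:**
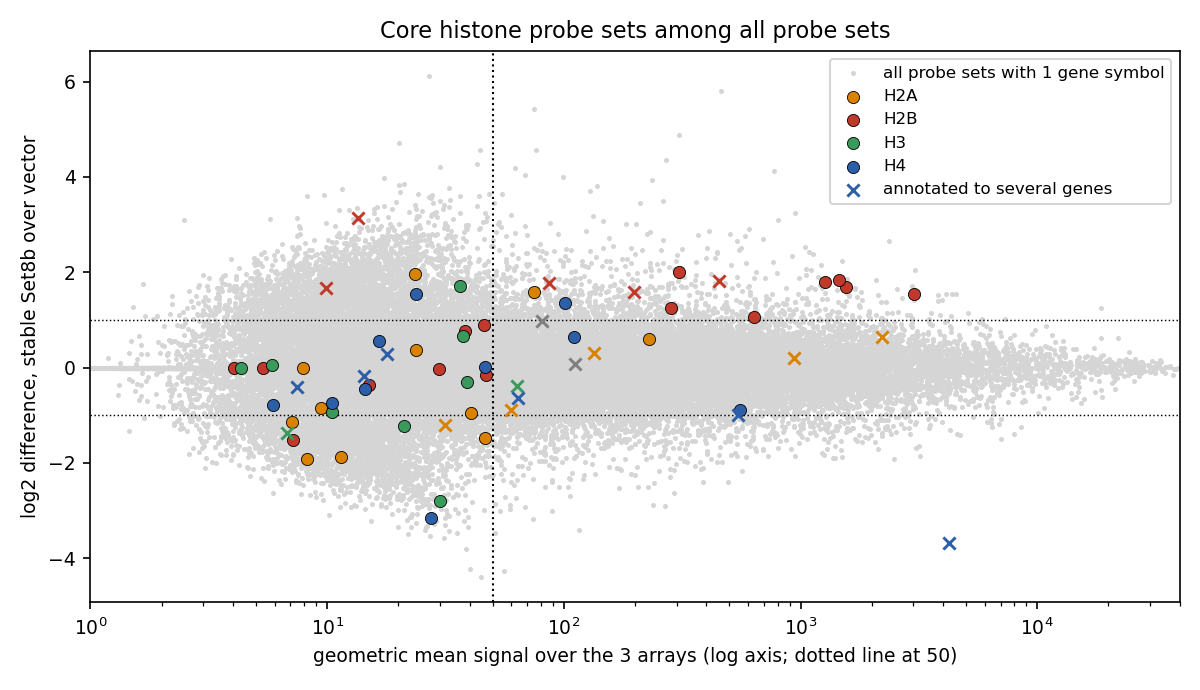
Log2 difference of stable Set8b from vector against geometric mean signal (log axis) for all 41091 probe sets with 1 gene symbol (grey), the 44 core histone probe sets (circles) and the 20 probe sets annotated to several core histone genes (crosses), coloured by class (grey crosses are annotated to H2A and H3). The H2B probe sets at or above 50 lie above 1, and an H4 cross lies at -3.68.

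Near-identical histone genes also share probe sets that the rule leaves out. Another 20 probe sets were annotated to several genes of the family, 13 of them at or above 50, and 19 of the family's 64 coding genes in RefSeq were read only by these. A further 37 had a probe set of their own and 8 had neither. No single gene is named from a shared probe set. Among the 24602 probe sets of any annotation at that brightness, 4.84% were at least 2-fold higher with stable Set8b than with vector and 5.02% lower. For stable over wild-type Set8b the shares were 4.75% and 4.8%, and for wild-type Set8b over vector 1.36% and 1.25%.

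The shared H2B probe sets went the way of the single-gene ones. All 3 at or above 50, each annotated to the same 5 genes, were at least 2-fold higher with stable Set8b than with vector. By 208490_x_at the signal was 959 with stable Set8b, 350.6 with wild-type Set8b and 274 with vector, by 208523_x_at 388, 156 and 128, and by 214455_at 215, 48.6 and 62.8. In each, stable Set8b was the highest array. Of the 5 genes 2 also have a member probe set, so these readings are not independent of those above.

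The 3 shared H4 probe sets at or above 50 went the other way. The 3 dimmer ones were at 0.28, -0.18 and -0.42 log2 for stable Set8b over vector. The brightest, 205967_at, is annotated to 14 H4 genes and ends in neither _x_at nor _s_at. It read 1164 with stable Set8b, 4363 with wild-type Set8b and 14907 with vector, 12.8-fold lower with stable Set8b than with vector, a log2 difference of -3.68. Only 1 of the 24602 probe sets had a lower difference. Wild-type Set8b was 3.42-fold lower than vector, and stable was 3.75-fold lower than wild-type Set8b. On the vector array 298 probe sets were brighter than this one, and on the stable Set8b array 4080.

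The other 2 brighter H4 probe sets, annotated to the same 14 genes, differed less. By 208580_x_at the signal was 332, 722 and 665, just past 2-fold lower with stable Set8b than with vector (-0.99 log2 with values as deposited, which is not) and -1.12 log2 from wild-type Set8b, with wild-type Set8b 0.12 above vector (-0.03 with median-centred arrays). These readings run alongside those of H4C11 (323, 870.0 and 599.7). Of the 14 genes 7 also have a member probe set, and whether both probe sets read the same transcripts was not tested. They are not taken as independent. By 207046_at it was 54.9, 56.4 and 85.4. All 3 had vector above stable Set8b, but they disagreed on wild-type Set8b, and 205967_at alone put it far below vector. The poly-A spike-ins given above were also lower on both Set8b arrays than on the vector array, at a median ratio of 1.06 between stable and wild-type Set8b. The hybridisation spike-ins were lower on the stable Set8b array than on either other. The part of both in these values was not tested.

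Shared H2A and H3 probe sets differed less. Those at or above 50 for H2A numbered 4. The brightest, 214290_s_at, read 2793 with stable Set8b, 2177 with wild-type Set8b and 1781 with vector, and 218280_x_at read 988, 969.6 and 856. By 207156_at it was 165, 111 and 132, and by 214542_x_at 41.4, 68.4 and 76.5. The H3 probe set 206110_at read 50.9, 76.1 and 66.2. None of these 5 passed 2-fold in any comparison. Another 2 were annotated to both H2A and H3 genes, 214472_at (107, 126 and 102) and 214522_x_at (93.8, 119 and 47.8), the second 1.31 log2 higher with wild-type Set8b than with vector.

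**Figure D4:**
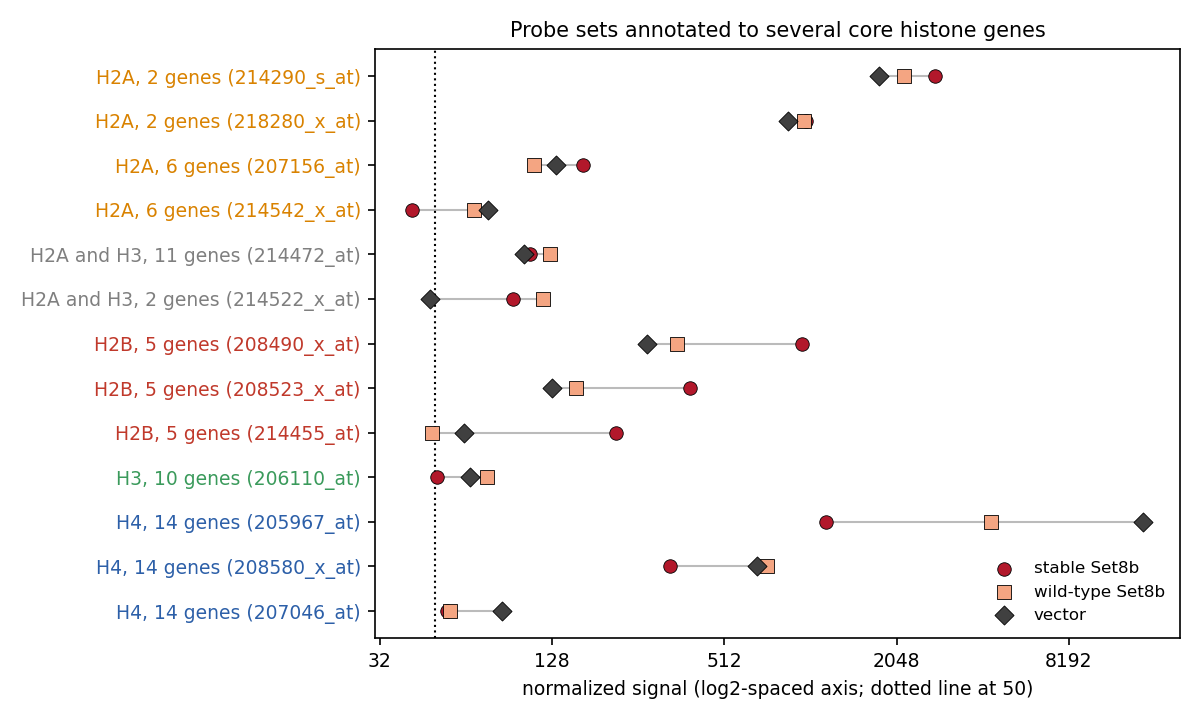
Normalized signal (log2-spaced axis) of the 13 probe sets annotated to several core histone genes with a geometric mean signal of at least 50, with 1 point for each of the 3 arrays. The 3 H2B probe sets (red labels) are highest with stable Set8b, and 205967_at for H4 lies at 1164 with stable Set8b, 4363 with wild-type Set8b and 14907 with vector.

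Some genes that drive histone transcription read lower with stable Set8b. Of 10 measured genes of histone gene transcription 3 were at least 2-fold lower than with vector and 0 higher (median -0.55), against 4.95% and 4.92% of the 20708 probe sets. They were CCNE2, a cyclin that activates CDK2 at S phase entry (113 with stable Set8b, 247 with wild-type Set8b and 325 with vector), CASP8AP2, a histone locus body protein (289, 671 and 658), and NPAT, the coactivator of the histone genes (231, 391.8 and 462). A second NPAT probe set gave 0.21 log2, the opposite sign. CCNE1, in the same list and brighter than CCNE2, was at -0.01 (1919, 2410 and 1928). COIL, the coilin of Cajal bodies, was at -0.89, and at -0.67 by a second probe set.

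Among 19 genes of histone mRNA 3′ end processing and decay, 1 was at least 2-fold lower, CASP8AP2 again, and 0 higher (median -0.17), a share lower close to the 4.95% of all probe sets. SLBP read 776 with stable Set8b, 1184 with wild-type Set8b and 1343 with vector (-0.79). CPSF3, the nuclease that cuts histone pre-mRNA, was at -0.49 and CSTF2 at -0.48 (-0.44 by a second). Of 19 S phase genes 13 were at least 2-fold lower and 0 higher (median -1.22), against the same 4.95% and 4.92%. They were led by MCM7 at -1.65 (-1.23 by a second probe set), CCNE2 at -1.53, PRIM1 at -1.47 and MCM6 at -1.42. CCNE2 is counted in the transcription list as well. In these bulk cultures a different share of cells in S phase and a different amount of RNA per cell cannot be told apart, for these genes or for the histone genes. With wild-type Set8b over vector 0 genes of these 3 lists passed 2-fold in either direction.

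Of 3 measured linker histone genes 1 was at least 2-fold lower with stable Set8b than with vector, H1-10 (1264 with stable Set8b, 5623 with wild-type Set8b and 4574 with vector). H1-3 was at -0.75 log2, and H1-2 went the other way at 0.30 (1944, 1516 and 1582). Of 8 genes of replacement variants, which are made outside S phase as well, 8 lay below 0 and 1 passed 2-fold, H2AX (3681, 8552 and 8278), whose 3 probe sets ran from -2.07 to -0.60. In neither list was a gene at least 2-fold higher. Among the 20708 probe sets 4.95% were at least 2-fold lower and 4.92% higher, and counts of 1 in lists of 3 and 8 genes say little beside these shares.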

How the data were processed

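Total RNA of U2OS cells was extracted with Trizol, labelled with biotin and hybridised to 1 Affymetrix array per construct, per the labels' protocols. The authors deposited 1 linear intensity per probe set and array. The summarisation software is not named in the labels. The trimmed mean (2% off each end) was 250.0 on each array.

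The 62 control probe sets were left out and the other 54613 quantile normalized, since the log2 medians of the arrays spanned 0.146. For log2 differences, signals under the 20th percentile (7.7) were set to it. Quantile normalization removes any overall shift. Background compresses differences of dim probe sets and adds noise to them. Of the 54613, the platform annotation gave 41091 a sole symbol, 1801 several and 11721 none. All 44 members matched RefSeq (GRCh38.p14) by symbol and Entrez identifier.

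There is 1 array per group, so no test was run. Probe sets were counted at 2-fold, and the signal split of 50 uses the mean over all 3 arrays, including the array where a probe set is high. Values were given in full for the 12 brighter probe sets and for up to 3 dimmer ones per class with the highest signal. The members, gene lists and the rule for named genes were chosen with earlier results of these data known. For each list the brightest probe set at or above 50 stood for a gene, and up to 4 genes farthest from vector were named, plus SLBP and NPAT. Other probe sets of named genes above 50, other probe sets of named members, H2BC4 and CCNE1 are given beside them. The counting steps were tested on simulated data. Alternatives were other normalizations, floors, filters, fold thresholds and sets of probe sets. Python 3.11.15 with numpy 2.4.6, pandas 2.3.3 and matplotlib 3.10.9 was used.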

Additional observations from a re-analysis of the deposited data

How the results depend on the processing

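With no signal filter, all 44 probe sets counted, the median was 0.00 (stable Set8b over vector) and 0.0446 (stable over wild-type Set8b). The counts lower were then 8 for stable Set8b over vector, 9 against wild-type Set8b and 6 for wild-type Set8b over vector, where 6 were higher. Without probe sets ending in _x_at, 5 remained, of which 3 were higher for stable Set8b over vector, 2 over wild-type Set8b and 0 for wild-type Set8b over vector, and 0 were lower for stable over wild-type Set8b. Without those ending in _x_at or _s_at, 2 remained, with 1, 1 and 0 higher in the same order and 0 lower for stable over wild-type Set8b. At 3-fold, 5 were higher for stable Set8b over vector and 3 over wild-type Set8b, with 0 lower there. At 1.5-fold, 1 was lower for stable Set8b over vector and 3 were higher for wild-type Set8b over vector. With a mean signal of at least 100 this last count was 0. Dropping the filter adds the 32 dimmer probe sets, whose median for stable Set8b over vector was -0.22; the cause of the other shifts was not tested beyond the smaller sets and changed thresholds given. The other 82 recomputed counts and medians stayed within 1.5 times the count or within the SD between probe sets. Values as deposited, median-centred arrays and no floor moved none of the counts, medians or named probe sets past those limits, but with median-centred arrays H2BC6 (0.95) fell short of 2-fold over vector and 8 rather than 9 were higher. Floors at 50 or at the 40th percentile moved 37 differences of named probe sets by more than that SD, the other 323 over all settings stayed within it, and none that passed 2-fold changed sign. Differences near 0 did: as deposited, H2BC11 over vector was 0.04 and H4C4 over wild-type Set8b -0.04, both for stable Set8b. With median-centred arrays the H4C4 value was -0.0037, and wild-type Set8b over vector was -0.01 for H2BC12L, -0.08 for H2BC5 by 209911_x_at and -0.03 for the shared 208580_x_at. For the 13 shared probe sets, added after the data were seen, 195 of 195 stayed within the SD. No paired analysis was possible because each construct has 1 array, and for the same reason no array could be left out. With 1 array per construct, signal over background limits what the 32 dimmer probe sets can show.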
